A study of Mus musculus with 16 samples.

Results

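RNA left after 3 h of actinomycin D was compared between long-term haematopoietic stem cells (LT-HSCs) labelled Nat10-deficient and wild type, across all genes. The comparison takes 4 of the 16 mouse libraries of the series, 2 files for each genotype, chosen by their labels alone. The series followed both genotypes at 0, 1, 3 and 5 h of 5 µM actinomycin D to measure how long mRNAs last with and without Nat10. Bone marrow depleted of mature lineages was grown in serum-free medium that held stem cell factor (SCF) and heparin, all groups received the drug in culture, and HSCs were then sorted. Polyadenylated RNA with an equal amount of ERCC spike-in was made into Smart-seq2 libraries. The 3 h groups are therefore wild-type LT-HSCs at 3 h and LT-HSCs of the genotype written Nat10-/- in the titles and Nat10 deficiency in the characteristics, also at 3 h. The titles also call the samples 32D, which is a mouse myeloid cell line, while the characteristics give LT-HSCs from bone marrow. How Nat10 was removed, the age of the mice and the number pooled are not given in the sources used here.

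NAT10 is the acetyltransferase that places N4-acetylcytidine (ac4C) on ribosomal RNA and transfer RNA, with THUMPD1 as its tRNA adaptor, and ac4C has also been described on mRNA. Actinomycin D lodges in DNA and stops RNA polymerases, so from then on an mRNA can only be lost. mRNAs of immediate-early genes, many with AU-rich elements in their 3′ untranslated region (UTR), are among the shortest-lived, while mRNAs for ribosomal proteins and metabolic enzymes are among the longest-lived. Counts of a sequencing library give shares, so a difference below says that a gene rose or fell relative to other genes of the same library.

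The 3 h libraries differed in make-up before any gene was tested. Total counts were 9702619 and 9142413 in the wild-type files and 13516675 and 14067540 in the files labelled Nat10-deficient. Immunoglobulin genes took 49.6 and 49.3% of gene counts in the wild type and 24.6 and 24.4% in the files labelled Nat10-deficient, and Jchain, the joining chain of secreted antibodies, another 5.65 and 5.63% and 2.93 and 2.92%. The ERCC share of all counts was 2.24% in both wild-type files and 0.0633 and 0.0644% in the others. Antibody-secreting cells are not LT-HSCs, and in bulk samples fewer cells of a type and less RNA per cell cannot be told apart. These shares move with every result below. Their part in those results was not tested beyond the scalings given. The labels call the files of a group biological replicates, but the headers of both files in every group name the same alignment. Between the files of a group the spread was close to that of counting, with a chi-square per degree of freedom of 1.43 and 1.7 within the 3 h groups and 159 and 156 between genotypes. The p-values below, and any lack of overlap between the genotypes, therefore measure only the spread between these files, which may be technical. The share of all genes without overlap was not counted. A second fit with the files of each group summed is given beside the results, and a named gene that passed the first fit but not the second is listed with its second adjusted p at the end of its paragraph, unless given before. It drew a straight line over the 4 times in each genotype and read the difference at 3 h. Its spread mixes variation between separate sorts with the misfit of the line, and these cannot be told apart. Passing or not passing it is thus not a test of replication.

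**Figure D1:**
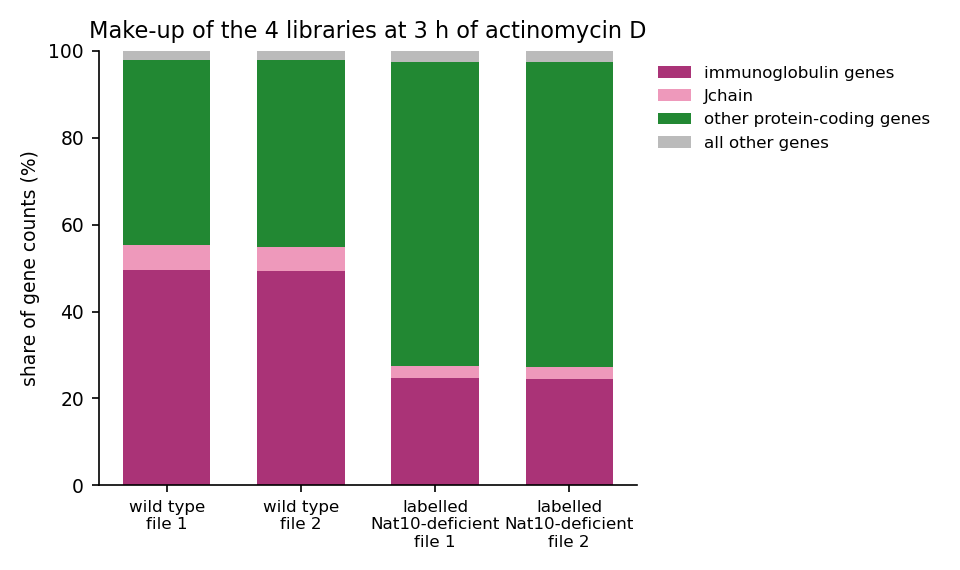
Share of gene counts (%) taken by immunoglobulin genes, Jchain, other protein-coding genes and all other genes in each of the 4 libraries at 3 h, as stacked bars. Immunoglobulin genes take 49.6% and 49.3% in the wild-type files and 24.6% and 24.4% in the files labelled Nat10-deficient.

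Across the transcriptome, fewer genes were higher than lower where the labels say Nat10-deficient, and "higher" and "lower" refer to those libraries throughout. Of 25081 genes tested with edgeR's quasi-likelihood test (TMM scaling, Benjamini-Hochberg adjusted p under 0.05), 7632 (30.4%) were higher and 9282 (37.0%) lower. At least 2-fold differences were found for 3885 genes (15.5%) upward and 7479 (29.8%) downward, and the median over all genes was -0.07 on the log2 scale. The split depended on the scaling: libraries scaled to all gene counts gave 9295 higher and 7706 lower, and libraries scaled to gene counts without immunoglobulin genes gave 5862 and 11025. RLE size factors gave 6095 and 10796, a list of 38 long-lived reference mRNAs 3799 and 13462, and ERCC counts 20265 and 68. TMM run after the immunoglobulin genes and the plasma cell list were taken out gave 7737 and 9206, close to TMM on all genes. Relative to TMM the median shift per gene was 0.29 for all gene counts, -0.28 for gene counts without immunoglobulin genes, -0.25 for RLE, -0.64 for the long-lived list, 5.43 for ERCC and 0.02 for TMM without antibody and plasma cell genes. The median of all genes itself moved by 0.11 for all gene counts and 5.26 for ERCC, and by the same amount as the shift per gene for the others. A difference smaller than these shifts can change sign with the scaling. Under ERCC scaling every one of the 33 list medians was above 0, so the signs below leave that scaling aside. With the files summed, 724 genes (2.89%) were higher and 288 (1.15%) lower, of which 723 and 284 were called in the same direction by the first fit.

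Nat10 mRNA itself was more abundant, not less, where the labels say Nat10-deficient. Nat10 (ENSMUSG00000027185, chr2:103551601-103591615, minus strand, GRCm39) stood at 46.5 and 39.5 counts per 1000000 on the TMM scale (CPM below) in the wild-type files and 98.3 and 101 in the others. The groups did not overlap, and the difference was 1.21 ± 0.069 (log2 ± SE, adjusted p = 1.91e-42), with an adjusted p of 0.0288 for summed files. Counts over the whole gene do not show whether an exon was removed, so they do not check the genotype labels. An exchange of labels would turn every direction below.

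Other enzymes that modify ribosomal and transfer RNA were also mostly higher at 3 h. Of 26 such genes, 21 were higher and 1 lower. Their median was 0.98, beside -0.07 for all genes and 0.33 for coding genes with a mean of at least 5 CPM. With the files summed 9 were higher and 0 lower. One of the 9 was Nop2, the cytosine methyltransferase of 28S ribosomal RNA, at 95.8 and 87.9 CPM in the wild type and 177 and 189.6 in the libraries labelled Nat10-deficient, higher by 0.99 ± 0.049. Dkc1, the pseudouridine synthase of H/ACA particles, had 92.7 and 93.8 CPM against 202 and 191 and was higher by 1.07 ± 0.048, and its partners Nhp2 and Nop10 were higher by 1.22 ± 0.076 and 1.28 ± 0.065. Trmt1, which dimethylates guanosine in tRNA, rose from 30.1 and 30.3 to 75.4 and 79.7 CPM (1.36 ± 0.078). The one lower gene was Zcchc4, a 28S adenosine methyltransferase, with 24.5 and 26.1 CPM against 7.01 and 6.13 (-1.95 ± 0.15), where its differences at 0, 1 and 5 h were 0.71, 0.65 and 2.72. Thumpd1, at 29.2 and 31.7 CPM in the wild type and 36.5 and 32, did not pass the test (adjusted p = 0.108), and the cytosine methyltransferase gene Nsun2 at 123 and 128 and 126 and 129.5 CPM did not either (adjusted p = 0.705). Both passed as higher with all gene counts (0.46 and 0.32) and as lower under the long-lived scaling (-0.47 and -0.62), and Nsun2 also as lower under RLE (-0.23) and without immunoglobulin genes (-0.26). Dkc1 (adjusted p = 0.0712), Trmt1 (adjusted p = 0.255) and Zcchc4 (0.47, the opposite sign, adjusted p = 0.723) did not pass with summed files.

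The m6A machinery, which methylates adenosines in mRNA and reads them, was split. Of 16 genes, 8 were higher and 3 lower, with a median of 0.28 that became -0.36 under the long-lived scaling and lay within 0.03 of 0 under RLE and without immunoglobulin genes. Of coding genes with a mean of at least 5 CPM 53.5% were higher and 24.2% lower, with a median of 0.33. The list as a whole was thus near these coding genes. Mettl3, the catalytic writer, was higher by 1.29 ± 0.11 (16.7 and 16.2 against 41.6 and 39.1 CPM) and the erasers Alkbh5 and Fto by 0.93 ± 0.05 and 1.08 ± 0.081, while the reader helicase gene Ythdc2 was lower with a difference of -1.69 ± 0.17. No gene of this list passed with the files summed.

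Genes for the translation apparatus were among the groups with the most even shift. Of 50 cytosolic ribosomal protein genes 45 were higher and 0 lower, with a median of 0.69 beside 0.63 for the most abundant quintile of coding genes, of which 80.5% were higher. From the lower to the upper quartile the ribosomal protein genes ranged from 0.62 to 0.80. Rplp0, of the ribosomal stalk, had 2999 and 3058 CPM in the wild type and 4683 and 4672 in the libraries labelled Nat10-deficient (0.63 ± 0.018, and -0.01 under the long-lived scaling). Rpl4 had 2833 and 2870 against 4614 and 4619.5 CPM (0.70 ± 0.018) and Rps27a, which encodes a ubiquitin fusion, 359.7 and 343 against 734 and 743 CPM (1.07 ± 0.029). No ribosomal protein gene passed with the files summed, where the list median was 0.48. All 19 translation factors of the TOP class, whose mRNAs start with a pyrimidine tract, were higher (median 0.79). They include the elongation factor gene Eef1a1 at 8185 and 8268 against 13732 and 13589 CPM (0.73 ± 0.015) and the nucleolar chaperone gene Npm1 (1.27 ± 0.031), which passed with summed files (adjusted p = 0.0356). Of 40 ribosome biogenesis genes 36 were higher and 0 lower (median 0.90), among them nucleolin, Ncl, with 563 and 549 against 1182 and 1188 CPM (1.09 ± 0.025) and Nop16 with 20.8 and 19.6 against 64.1 and 63.8 (1.66 ± 0.091). Of 77 mitochondrial ribosomal protein genes 69 were higher and 0 lower (median 0.74). Under the long-lived scaling these medians shrank to 0.05 for ribosomal proteins, 0.15 for the TOP class and 0.26 for ribosome biogenesis. Eef1a1 (adjusted p = 0.451) and Nop16 (adjusted p = 0.0651) did not pass with summed files.

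Energy metabolism was shifted in the same direction, as abundant coding genes were in general. In the most abundant quintile of coding genes the median was 0.63 and 80.5% were higher. In the quintile below it these were 0.44 and 67.3%. The medians below for glycolysis and for mitochondrially encoded mRNAs lie between those of these quintiles. Of 40 nuclear-encoded oxidative phosphorylation genes 38 were higher and 2 lower (median 0.78), 14 of them higher with summed files. Atp5b, the catalytic subunit of ATP synthase, had 1302 and 1311 CPM in the wild type and 2819 and 2839.8 in the libraries labelled Nat10-deficient (1.11 ± 0.02), and Cyc1, cytochrome c1 of complex III, 153 and 161 against 372 and 371 (1.24 ± 0.038). The 13 mitochondrially encoded mRNAs, which a separate RNA polymerase makes, showed 12 higher and 0 lower with a median of 0.56 that the long-lived scaling turned to -0.08. mt-Co1 differed by 0.20 ± 0.017 (4229 and 4136 against 4788 and 4802 CPM), which turned to -0.05 under RLE, -0.09 without immunoglobulin genes and -0.44 under the long-lived scaling, and mt-Nd1 by 0.97 ± 0.024 (759 and 751 against 1489 and 1475 CPM). Glycolysis had 16 of 22 genes higher and 3 lower (median 0.61, and -0.03 under the long-lived scaling), with the first enzyme Hk1 at 91.9 and 93.8 against 321 and 313 CPM (1.77 ± 0.043) and lactate dehydrogenase Ldha at 467 and 444 against 1153 and 1151 (1.34 ± 0.025). Of 23 tested fatty acid oxidation genes 20 were higher and 1 lower (median 0.84), including the thiolase gene Acaa2 (1.19 ± 0.049, summed adjusted p = 0.038). Atp5b (adjusted p = 0.0518), mt-Co1 (-0.16, the opposite sign, adjusted p = 0.762) and mt-Nd1 (adjusted p = 0.162) did not pass with summed files.

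Genes of cell division and protein turnover were higher at 3 h, beside a median of 0.63 for the most abundant quintile of coding genes. Of the 33 lists, S phase and mitosis had the most genes called with summed files. Of 30 genes of DNA replication and S phase 28 were higher and 0 lower (median 1.15), and 18 were higher with summed files. Mcm3, a subunit of the replicative helicase, had 128 and 133 CPM in the wild type and 422 and 409 in the libraries labelled Nat10-deficient (1.67 ± 0.039). Rrm1, the large subunit of ribonucleotide reductase, had 274 and 256 against 598 and 608 CPM (1.18 ± 0.031). Of 30 mitosis and G2 genes 27 were higher and 1 lower (median 0.98), with 17 higher in the summed fit. Cdca3, a trigger of mitotic entry, had 44.3 and 45.5 against 134 and 132 CPM (1.56 ± 0.063), and the topoisomerase gene Top2a 105.1 and 113.5 against 219 and 216 (0.99 ± 0.046). All 30 proteasome subunit genes were higher (median 0.80), Psmb7 by the most (63.6 and 63.4 against 167 and 162 CPM, 1.37 ± 0.054) among those with a mean log2 CPM of at least 3. Cytosolic heat shock genes had 15 of 20 higher and 4 lower (median 0.80), with the chaperonin gene Hspe1 higher by 1.34 ± 0.054 and the small heat shock gene Hspb1 lower with a difference of -1.46 ± 0.17. In these lists the medians had a positive sign under each of the other scalings run. Hspb1 (adjusted p = 0.0534) did not pass with summed files.

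**Figure D2:**
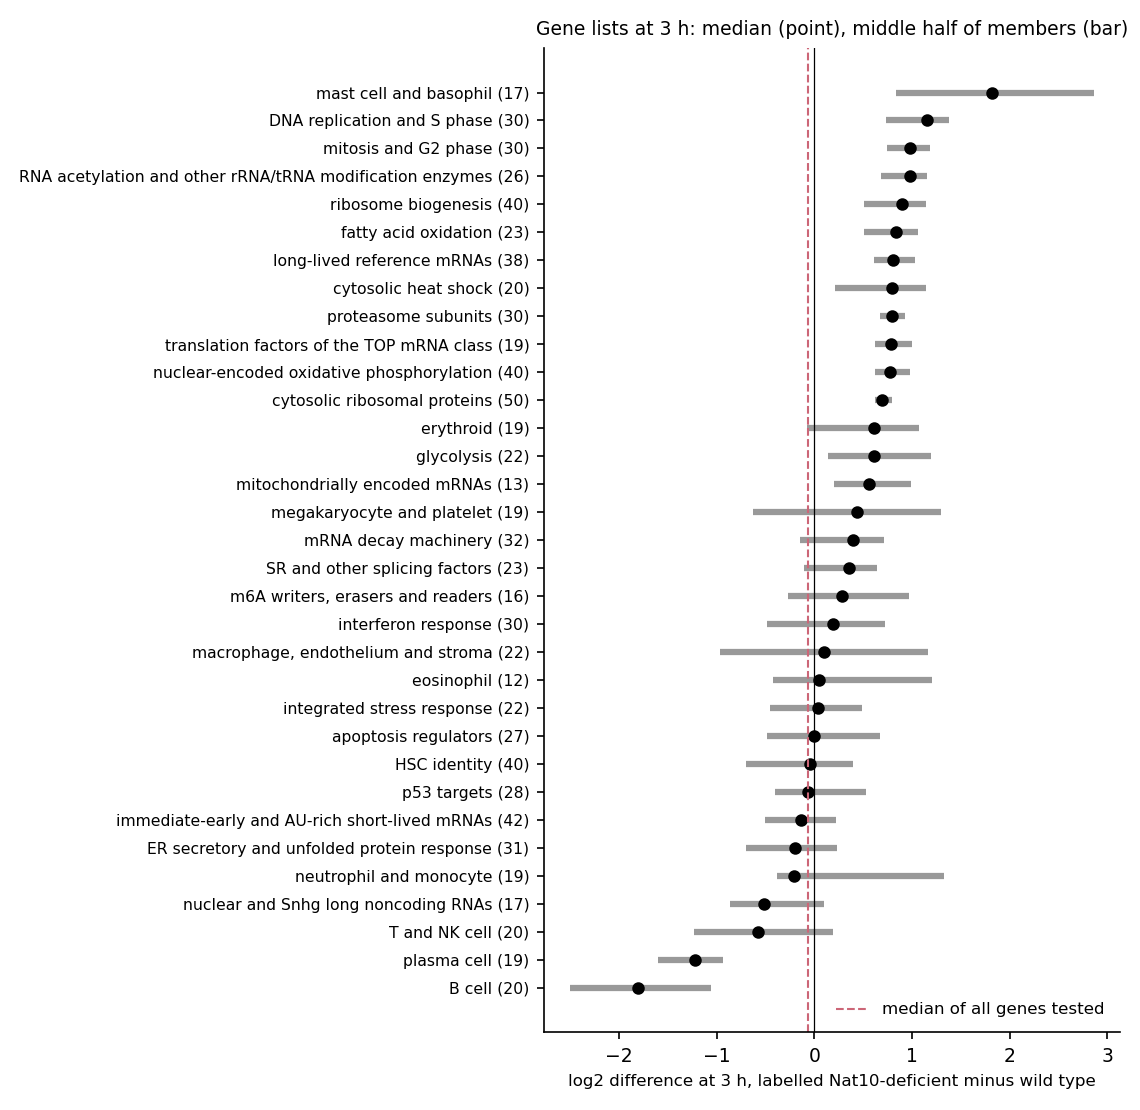
Median (point) and quartile range (bar) of the log2 difference at 3 h, libraries labelled Nat10-deficient minus wild type on the TMM scale, for 33 gene lists with the number of genes tested in brackets; the dashed line is the median of all genes, -0.07. Lists run from the B cell list at -1.81 to the mast cell and basophil list at 1.82.

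HSC identity genes were divided at 3 h. Of 40 genes 15 were higher and 17 lower. The median of -0.04 was near that of all genes but below the 0.33 of coding genes with a mean of at least 5 CPM. The list medians were -1.27 at 0 h, -1.19 at 1 h and -1.01 at 5 h. By the interaction test in the same fit, the difference at 3 h lay above that at 0 h for 28 of the 40 and below it for 3, where 25.6% of all genes were above and 30.3% below. Vwf, carried by platelet-biased HSCs, had 79.9 and 78.3 CPM in the wild type and 95.5 and 104 in the libraries labelled Nat10-deficient (0.34 ± 0.06, with -1.84 at 0 h). Its call was lost under RLE (0.09) and without immunoglobulin genes (0.05), and it turned lower under the long-lived scaling (-0.30). Robo4, a guidance receptor of HSCs and endothelium, had 20.9 and 18.8 against 18.7 and 21.1 CPM (0.00 ± 0.12, adjusted p = 1, with -2.16 at 0 h), and passed as higher with all gene counts (0.30) and as lower without immunoglobulin genes (-0.28) and under the long-lived scaling (-0.64). Hlf, a transcription factor restricted to stem cells, had 17.9 and 20.9 against 16.8 and 17.4 CPM and did not pass (adjusted p = 0.177). It passed as lower under RLE (-0.43), without immunoglobulin genes (-0.47), under the long-lived scaling (-0.82), with at least 50 counts in 2 libraries (-0.31), with DESeq2 (-0.43) and with summed files (-1.57, adjusted p = 0.0494). Ctnnal1, which marks HSCs in a reporter mouse, was higher, with 13.2 and 11.1 against 16.7 and 15.3 CPM (0.39 ± 0.15, adjusted p = 0.0138), and Hoxb5, used the same way, had 1.21 and 1.85 against 2.16 and 1.63 CPM and did not pass (adjusted p = 0.523). The call of Ctnnal1 was lost under RLE (0.15), without immunoglobulin genes (0.11), without the second wild-type file (0.24, adjusted p = 0.246) and without the first file labelled Nat10-deficient (0.34, adjusted p = 0.0766), and the long-lived scaling turned it to -0.25. Vwf (-0.84, the opposite sign, adjusted p = 0.174) and Ctnnal1 (-0.91, the opposite sign, adjusted p = 0.217) did not pass with summed files.

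Procr, Slamf1, Mecom and Fgd5, also genes used to mark LT-HSCs, were lower at 3 h as they were at 0 h, with differences at 0 h of -1.89, -1.80, -1.44 and -2.67. Procr, the endothelial protein C receptor (EPCR), had 81.4 and 87.5 CPM in the wild type and 54.4 and 50.7 in the libraries labelled Nat10-deficient (-0.68 ± 0.067, summed adjusted p = 0.0351). Slamf1, which encodes CD150, had 24.7 and 20.9 against 8.24 and 12.9 CPM (-1.10 ± 0.14, summed adjusted p = 0.0457), and Mecom, the Evi1 transcription factor, 40.8 and 33.7 against 10.9 and 14.3 (-1.56 ± 0.11, summed adjusted p = 0.0207). Fgd5, a guanine exchange factor used to mark HSCs, had 6.33 and 5.11 against 1 and 0.961 CPM (-2.54 ± 0.33), with a summed adjusted p of 0.0529. Ly6a, the Sca-1 gene, went the other way in time, from 0.30 at 0 h to -1.07 ± 0.048 at 3 h (234 and 234 against 109 and 113 CPM). For each of these 5 genes both files labelled Nat10-deficient lay below both wild-type files, where files of a group differ little beyond counting. The share of all genes without overlap was not counted, so this does not set these genes apart. Ly6a (adjusted p = 0.0912) did not pass with summed files.

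Cd34 and Kit, which progenitors express as well, were higher. Cd34, a sialomucin on multipotent progenitors that LT-HSCs of adult mice largely lack, had 26.4 and 26.6 CPM in the wild type and 172 and 164 in the libraries labelled Nat10-deficient. Its difference of 2.67 ± 0.064 was among the 10 largest rises at this level of expression, and it passed with summed files (adjusted p = 0.00709). Kit, the SCF receptor, had 102 and 98.2 against 186 and 194 CPM (0.93 ± 0.046, summed adjusted p = 0.417). The HSC median was negative with RLE (-0.29), without immunoglobulin genes (-0.33) and with the long-lived list (-0.68), and positive with all gene counts (0.25). In the summed fit, which draws a line through all times, it was -0.85 with 1 gene higher and 4 lower.

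**Figure D3:**
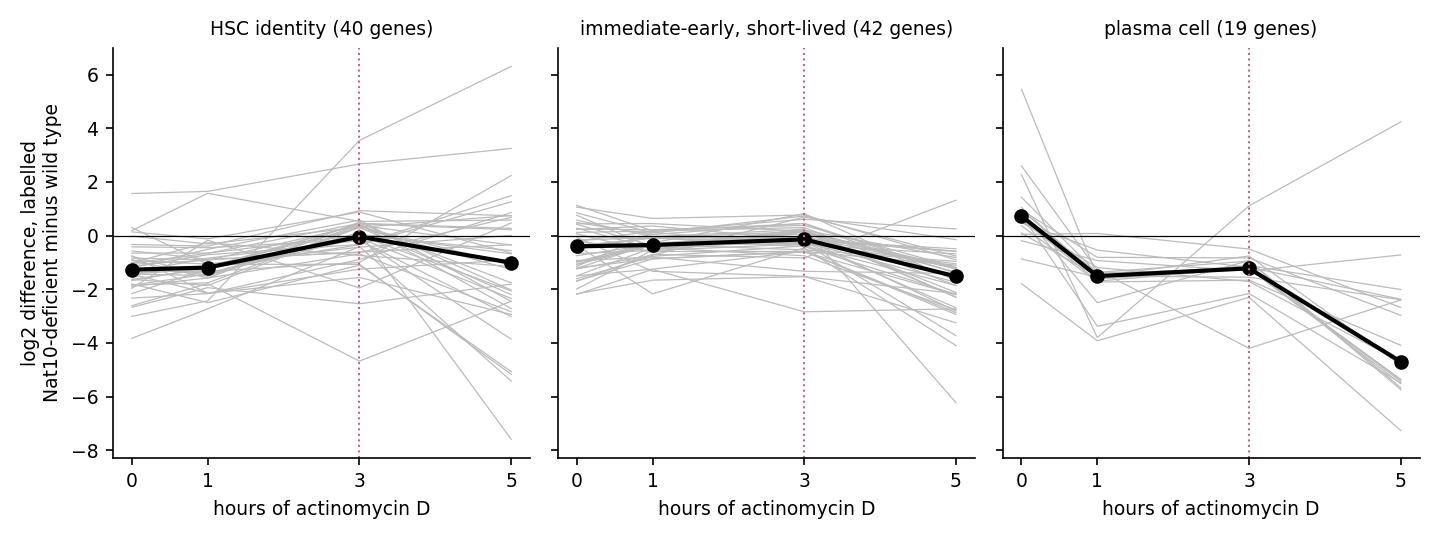
Log2 difference between libraries labelled Nat10-deficient and wild type against hours of actinomycin D for 3 gene lists; each grey line is a gene, the black line the list median, and the dotted line marks 3 h. The HSC identity median is -0.04 at 3 h and -1.27, -1.19 and -1.01 at 0, 1 and 5 h; the plasma cell median goes from 0.73 at 0 h to -1.22 at 3 h and -4.70 at 5 h.

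Short-lived mRNAs were divided. Of 42 immediate-early and AU-rich mRNAs, 13 were higher, 17 lower and 12 did not pass. The list median was -0.14, beside -0.07 for all genes and 0.33 for coding genes with a mean of at least 5 CPM. Of those coding genes 53.5% were higher and 24.2% lower. The list median was -0.40 at 0 h, -0.35 at 1 h and -1.52 at 5 h. The 3 h difference lay above the mean of 1 h and 5 h for 33 genes and below it for 1 (22.9% and 25.0% of all genes). The list's CPM summed to 3295 and 3321 in the wild type and 3267 and 3259 in the libraries labelled Nat10-deficient. The activator genes Fosb and Jun, partners in the AP-1 factor, were higher, Fosb at 365 and 379 against 416 and 417 CPM (0.16 ± 0.03) and Jun at 345 and 335 against 446 and 439 (0.38 ± 0.03). Fos, of the same factor, was lower, with 207 and 205 against 123 and 122 CPM (-0.75 ± 0.037, summed adjusted p = 0.0443). Egr2, a zinc finger factor of the growth response, was lower with a difference of -1.53 ± 0.068 (81.9 and 99.5 against 33.1 and 29.7 CPM, summed adjusted p = 0.0288), and the anti-proliferative gene Btg2 with one of -0.38 ± 0.031 (312 and 329 against 253 and 239.6 CPM). Egr1 had 128 and 131 against 135 and 138 CPM and did not pass (adjusted p = 0.119), while it passed as higher with all gene counts (0.36) and as lower under RLE (-0.18), without immunoglobulin genes (-0.22) and under the long-lived scaling (-0.57). Under the long-lived scaling Fosb (-0.48) and Jun (-0.26) turned lower, as Fosb did under RLE (-0.09) and without immunoglobulin genes (-0.12), and with all gene counts the list median was 0.16. Fosb (-0.66, the opposite sign, adjusted p = 0.236), Jun (-0.30, the opposite sign, adjusted p = 0.549) and Btg2 (adjusted p = 0.0905) did not pass with summed files.

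The AU-rich element was found in mRNAs of this list that were lower and in ones that were higher, and the windows below show both. Each window holds 25 bases of the 3′ UTR, 5′ to 3′ on the transcript strand, with the 9-base motif TTATTTATT in capitals and 8 bases on each side, from the GENCODE M21 transcript with the longest coding sequence (GRCm38). Only the transcript strand was searched, and the 5-base motif ATTTA lies within the 9-base one. The first 3 come from mRNAs that were lower and the last 3 from mRNAs that were higher at 3 h.
Fos: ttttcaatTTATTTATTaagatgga
Dusp1: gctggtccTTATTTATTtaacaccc
Zfp36l1: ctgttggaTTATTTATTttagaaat
Fosl2: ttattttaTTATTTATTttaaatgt
Zfp36l2: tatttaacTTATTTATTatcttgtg
Nfkbia: accacgttTTATTTATTgtgctttt
The windows lie in 3′ UTR exons at chr12:85477105-85477129 (plus strand) for Fos, chr17:26506161-26506185 (minus strand) for the MAP kinase phosphatase gene Dusp1, chr12:80108169-80108193 (minus strand) for Zfp36l1, chr5:32156873-32156897 (plus strand) for the AP-1 member Fosl2, chr17:84184916-84184940 (minus strand) for Zfp36l2 and chr12:55489610-55489634 (minus strand) for Nfkbia, the inhibitor of NF-kappaB. Zfp36l1 and Zfp36l2 encode proteins that bind this element and bring decay enzymes. Fos was lower, as given above. Dusp1 had 51.7 and 53.6 CPM in the wild type and 38.3 and 40.9 in the libraries labelled Nat10-deficient (-0.41 ± 0.075), and Zfp36l1 96 and 101 against 68.3 and 68.7 (-0.53 ± 0.06). In all 3 the groups did not overlap. Fosl2 had 5.93 and 5.97 against 9.01 and 10.2 CPM (0.69 ± 0.18), Zfp36l2 18.7 and 16.9 against 26.3 and 28.1 (0.61 ± 0.11) and Nfkbia 175 and 170.1 against 239.8 and 233 (0.45 ± 0.039), again without overlap. Long-lived scaling turned Zfp36l2 (-0.03) and Nfkbia (-0.19) and ended the call of Fosl2 (0.05, adjusted p = 0.843), and all gene counts ended that of Dusp1 (-0.12, adjusted p = 0.155). These 6 genes were picked from 12 windows of the list after their values were seen, to show both directions. The share of all genes without overlap was not counted, so the lack of it does not set them apart. Dusp1 (adjusted p = 0.0678), Zfp36l1 (adjusted p = 0.154), Fosl2 (-0.18, the opposite sign, adjusted p = 0.896), Zfp36l2 (adjusted p = 0.753) and Nfkbia (-0.32, the opposite sign, adjusted p = 0.564) did not pass with summed files.

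Over all coding genes the motif went with smaller differences. The 9-base motif was found in 1465 of 20966 3′ UTRs (6.99%) and the 5-base motif in 61.7%. Among 9471 coding genes with a mean of at least 5 CPM and a 3′ UTR, the median difference was 0.35 without the 9-base motif (8805 genes), 0.10 with 1 copy (531 genes) and 0.18 with 2 or more (135 genes). Longer UTRs hold more motifs, so the same was read within each quintile of 3′ UTR length. The medians without and with the motif were 0.50 and 0.23 in the shortest quintile, 0.41 and 0.24, 0.35 and 0.23, and 0.29 and 0.10 in the next ones, and 0.12 and -0.03 in the longest. They are descriptions of genes, which are not independent replicates. Length itself moved more: by exonic length the medians of the quintiles were 0.56, 0.49, 0.38, 0.21 and -0.03 from shortest to longest.

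Genes were also grouped by their change in the first hour of the block, read from libraries that are not in the 3 h comparison. Coding genes with at least 5 CPM (9500) were divided into quintiles by their change from 0 h to 1 h in the wild type. Their median difference at 3 h was 0.30 in the quintile that fell by the most, 0.47, 0.51 and 0.35 in the next 3, and -0.10 in the quintile with the largest gain in share, beside 0.33 for all 9500. Divided by the change in the libraries labelled Nat10-deficient, the medians were -0.06, 0.25, 0.44, 0.55 and 0.41. The quintile with the most early loss in the wild type was thus near the median of the genes divided, and that with the most early loss in the libraries labelled Nat10-deficient was below it. Each division shares its genotype with the 3 h libraries, though not the sorts.

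**Figure D4:**
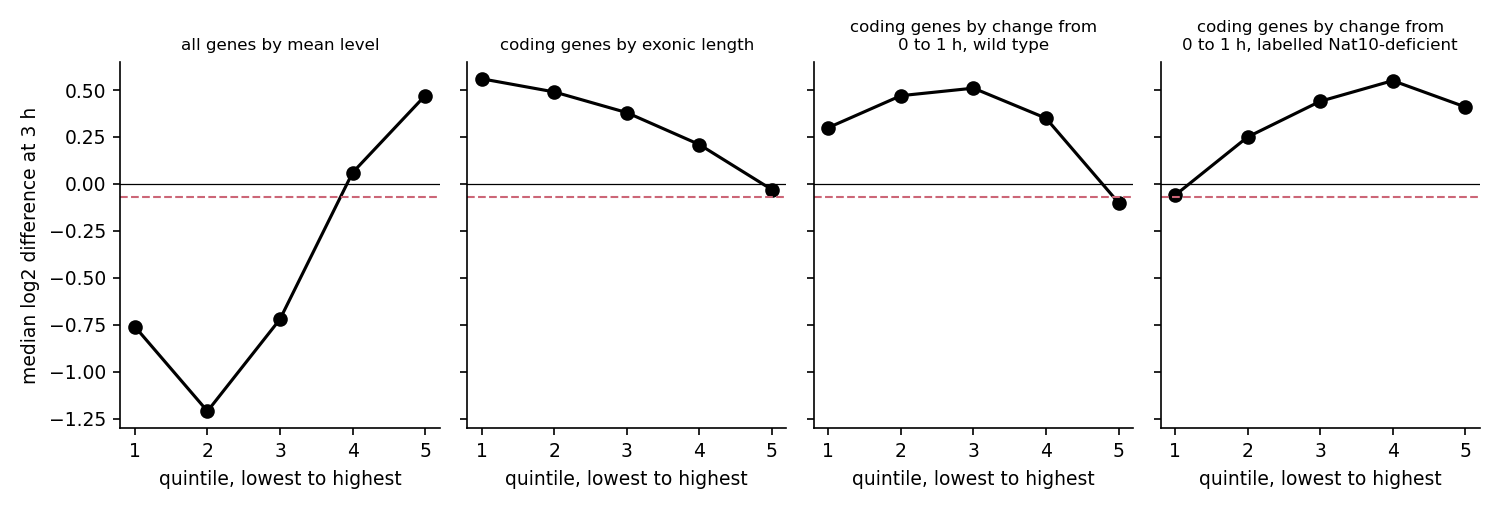
Median log2 difference at 3 h by quintile of mean level (all genes tested), exonic length, and change from 0 to 1 h in the wild type or in the libraries labelled Nat10-deficient (coding genes with at least 5 CPM); the dashed line is the median of all genes, -0.07, and that of the coding genes divided is 0.33. The medians run from -0.76 to 0.47 over the quintiles of level and from 0.56 to -0.03 over those of length.

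Genes at low levels and noncoding genes were lower more often than abundant coding genes. By quintile of mean level over the 16 libraries the medians were -0.76, -1.21, -0.72, 0.06 and 0.47, and in the top quintile, from 26.7 CPM up, 67.7% of genes were higher and 18.6% lower. Protein-coding genes as a class had a median of 0.05, with 37.7% higher and 32.6% lower. The 1689 lincRNAs had a median of -1.33 with 14.6% higher and 49.6% lower. The counts were made without strand, so a noncoding gene cannot be told from a gene it overlaps on the other strand. Among nuclear and small nucleolar host noncoding RNAs, 2 of 17 were higher and 9 lower (median -0.52). Malat1, of nuclear speckles, had 304 and 285 CPM in the wild type and 163 and 156 in the libraries labelled Nat10-deficient (-0.89 ± 0.041, summed adjusted p = 0.0369), and Neat1, the scaffold of paraspeckles, 257 and 264 against 153 and 156 (-0.75 ± 0.042). More genes had a count in the wild-type files, 29024 and 28520, than in the others, 27190 and 27254, although counts outside immunoglobulin genes were 4783805 and 4534326 against 10190748 and 10631098. With genes of at least 50 counts in 2 libraries alone, 5234 of 12632 were higher and 4214 lower. That filter leaves out genes at the low levels whose medians were lower, so the recount follows from those medians. The part of low counts in the lower medians was not tested. Neat1 (adjusted p = 0.147) did not pass with summed files.

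Antibody-secreting cell genes were lower at 3 h. Of 19 plasma cell genes 0 were higher and 17 lower (median -1.22), and their CPM summed to 76976 and 76311 in the wild type and 32278 and 32113 in the libraries labelled Nat10-deficient. Xbp1, the factor that drives the secretory programme, had 1705 and 1691 against 514 and 522 CPM (-1.71 ± 0.025, summed adjusted p = 0.0344), and Irf4, needed for plasma cell identity, 48 and 59.5 against 12.3 and 11.7 (-2.16 ± 0.11, summed adjusted p = 0.0336). Bhlha15, the secretory factor Mist1, had 36.4 and 40.1 against 1.85 and 2.29 CPM (-4.20 ± 0.18). Jchain had 72201 and 71435 against 30511 and 30335 CPM (-1.24 ± 0.013), and Igkc, the kappa constant region, 370565 and 364061 against 150567 and 149241 (-1.29 ± 0.011), neither passing with summed files (adjusted p = 0.17 and 0.135). At 0 h the median of the list was 0.73, so the order of the genotypes was the opposite before the block. Bhlha15 (adjusted p = 0.093) did not pass with summed files.

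Variable segments of the antibody genes moved in both directions. Of 194 heavy and light chain variable genes 158 were lower and 14 higher (median -1.19). Igkv4-80 had 935 and 939 CPM in the wild type and 17.5 and 20 in the libraries labelled Nat10-deficient (-5.64 ± 0.048), and Ighv3-1 429 and 429.5 against 15.2 and 14.6 (-4.85 ± 0.059). Igkv4-71 was higher, with 2.16 and 5.68 against 74.7 and 71.8 CPM (4.24 ± 0.15). Reads of near-identical segments can be shared between them. Genes of the secretory pathway that other cells use too were split, with 10 of 31 higher and 20 lower (median -0.20, and 0.10 with all gene counts). Hsp90b1, the chaperone GRP94, was lower with a difference of -0.57 ± 0.021, while Pdia3, a disulphide isomerase, was higher by 0.57 ± 0.022 (1208 and 1201 against 1768 and 1812 CPM, and -0.07 under the long-lived scaling). Of 20 B cell genes 16 were lower and 2 higher (median -1.81, and -1.69 with genes at 0 counts held at the 3-count floor). Cd79a, of the B cell receptor, had 601 and 573 against 190.2 and 194 CPM (-1.61 ± 0.035). T and NK genes had 11 of 20 lower and 5 higher (median -0.58), but Nkg7, a granule protein gene of cytotoxic cells, was higher by 1.31 ± 0.048. Igkv4-71 (adjusted p = 0.0509), Hsp90b1 (adjusted p = 0.162), Pdia3 (adjusted p = 0.523), Cd79a (adjusted p = 0.104) and Nkg7 (adjusted p = 0.0689) did not pass with summed files.

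Myeloid granule genes and markers of committed lineages were present in both genotypes. Of 17 markers of mast cells and basophils 14 were higher and 1 lower (median 1.82), with summed CPM of 1460.4 and 1484 in the wild type and 5837 and 5839.7 in the libraries labelled Nat10-deficient. Prss34, a basophil tryptase, had 462 and 461 against 3056 and 3009.6 CPM (2.72 ± 0.026), Mcpt8, the basophil protease, 117 and 119 against 757 and 786 (2.71 ± 0.04), and Cpa3, mast cell carboxypeptidase, 41.1 and 46.6 against 308 and 328 (2.86 ± 0.057, summed adjusted p = 0.0361). Cma1, a mast cell chymase, had 0 counts in both wild-type files and was at least 44-fold higher with that group held at 3 counts. Fcer1a, the IgE receptor chain, had 6.6 and 9.66 against 52.1 and 51.7 CPM (2.68 ± 0.14). The groups did not overlap for any of these genes, where files of a group differ little beyond counting. How many of all genes showed the same was not counted. Mcpt4, another mast cell chymase gene, was also at 0 counts in the wild type. Prss34 (adjusted p = 0.3), Mcpt8 (adjusted p = 0.289) and Fcer1a (adjusted p = 0.331) did not pass with summed files.

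Neutrophil and monocyte markers were divided. Mpo, myeloperoxidase of primary granules, had 4328 and 4375 CPM in the wild type and 11299 and 11247 in the libraries labelled Nat10-deficient (1.37 ± 0.017), and Elane, neutrophil elastase, 1952 and 1951 against 5195 and 5211 (1.41 ± 0.019). Ngp and S100a9, of more mature neutrophils, were lower, Ngp with a difference of -3.81 ± 0.12 (108 and 97.2 against 7.85 and 6.8 CPM) and S100a9 at 65.2 and 62.5 against 29.3 and 34.7 CPM (adjusted p = 7.95e-19). The list as a whole had 9 of 19 higher and 7 lower (median -0.21, and 0.08 with all gene counts), while its summed CPM were 9209.6 and 9250.4 and 21231 and 21207. Of 19 erythroid markers 12 were higher and 3 lower (median 0.61, and -0.03 under the long-lived scaling). Car1, carbonic anhydrase of early erythroid cells, had 454 and 452 against 1572 and 1559 CPM (1.79 ± 0.024, summed adjusted p = 0.0207), and the water channel gene Aqp1 181 and 192 against 629 and 634 (1.76 ± 0.033, summed adjusted p = 0.0207). Megakaryocyte markers had 9 of 19 higher and 6 lower (median 0.44, and -0.19 under the long-lived scaling). The median of coding genes with a mean of at least 5 CPM was 0.33. Mmrn1 was lower, with 176 and 159 against 108 and 97.1 CPM (-0.71 ± 0.048, summed adjusted p = 0.0324). Pf4, platelet factor 4, had 14.7 and 16.3 against 92.3 and 101 CPM (2.64 ± 0.089) and Itga2b, integrin CD41, 80.3 and 78.6 against 284 and 292 (1.86 ± 0.047), both with a summed adjusted p of 0.0207. Of 12 eosinophil markers 5 were higher and 3 lower (median 0.05, and -0.20 under RLE, -0.23 without immunoglobulin genes and -0.59 under the long-lived scaling). Epx, eosinophil peroxidase, had 320.2 and 331 against 1356 and 1348 CPM (2.05 ± 0.029, summed adjusted p = 0.0288). Il5ra went the other way, with 46.5 and 40.6 against 11.2 and 9.9 CPM (-2.04 ± 0.13). The 3 h difference lay below that at 0 h for 10 of the 12 and above it for 0 (30.3% and 25.6% of all genes). Mpo (adjusted p = 0.0983), Elane (adjusted p = 0.0902), S100a9 (adjusted p = 0.3) and Il5ra (adjusted p = 0.205) did not pass with summed files.

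**Figure D5:**
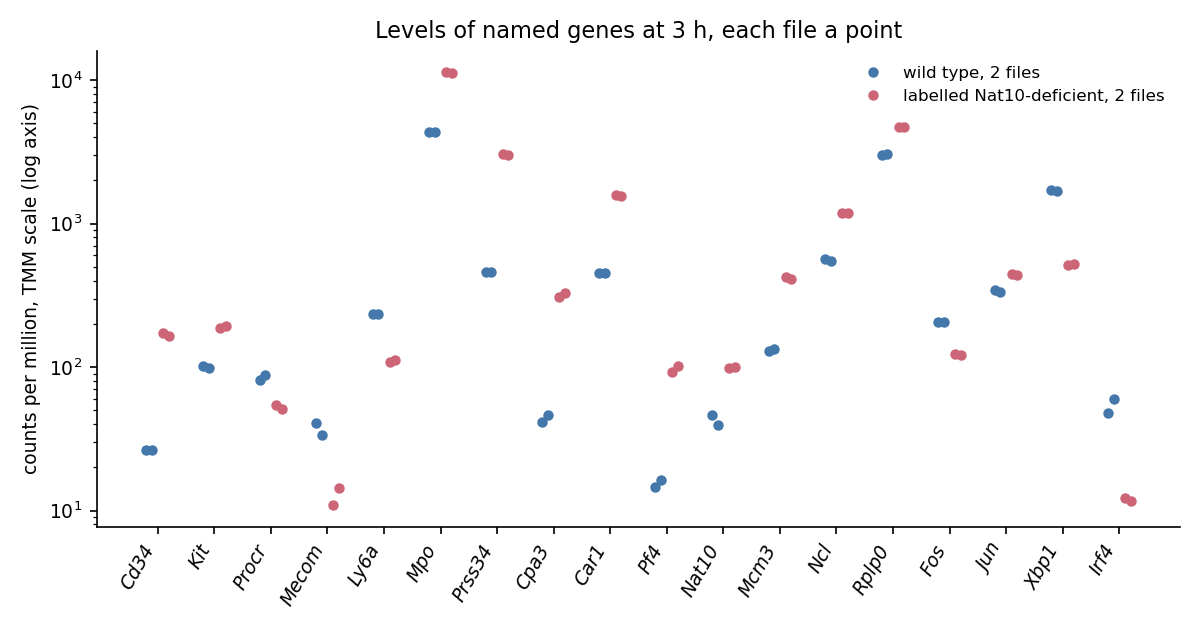
Level at 3 h in CPM on the TMM scale (log axis) of 18 named genes, each file a point, wild type in blue and labelled Nat10-deficient in red. The points of a pair nearly coincide, and Cd34, Prss34, Cpa3 and Pf4 are higher and Mecom and Irf4 lower in the libraries labelled Nat10-deficient.

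The stress and death pathways showed no common direction. Of coding genes with a mean of at least 5 CPM 53.5% were higher and 24.2% lower, with a median of 0.33. The medians of splicing factors and decay machinery below lie near that value, so they do not set these lists apart. Of 22 integrated stress response genes 11 were higher and 7 lower (median 0.04). Slc3a2, an amino acid transporter chain, was lower with a difference of -1.28 ± 0.026 (1222 and 1251 against 516 and 505 CPM, summed adjusted p = 0.0298), while Psat1, of serine synthesis, was higher by 1.12 ± 0.06 (58.6 and 59.2 against 134 and 122 CPM, summed adjusted p = 0.0333). p53 target genes had 10 of 28 higher and 11 lower (median -0.07). Trp53 itself had 158 and 159 against 377 and 367 CPM (1.23 ± 0.037) and Trp53inp1, its stress-induced partner, 95 and 90.5 against 28 and 27.7 (-1.73 ± 0.081). Interferon response genes had 13 of 30 higher and 9 lower (median 0.19), apoptosis regulators 8 of 27 higher and 9 lower (median 0.00), and splicing factors 15 of 23 higher and 6 lower (median 0.35). mRNA decay machinery had 18 of 32 higher and 7 lower (median 0.40), with the exosome gene Exosc5 higher by 1.10 ± 0.047 and the deadenylase ligase gene Cnot4 lower with a difference of -1.29 ± 0.11. The p53 median was 0.22 with all gene counts. The medians of the integrated stress response and interferon lists were negative under RLE, without immunoglobulin genes and under the long-lived scaling, and those of splicing factors and decay machinery under the last alone. Of 38 long-lived reference mRNAs 36 were higher (median 0.81), the 2 lower ones being Ftl1 (-0.04 ± 0.019) and B2m (-0.33 ± 0.018). Ftl1 was higher with all gene counts (0.25) and lost its call without the second wild-type file (-0.04, adjusted p = 0.0933) or the first file labelled Nat10-deficient (-0.01, adjusted p = 0.896). Exosc5 (adjusted p = 0.0651), Cnot4 (adjusted p = 0.527), Ftl1 (adjusted p = 0.389) and B2m (adjusted p = 0.118) did not pass with summed files.

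The largest differences outside antibody genes were found for genes of several functions. Among genes with a mean log2 CPM of at least 4 at 3 h, Spg20, which encodes spartin of endosomes and lipid droplets, rose the most, from 3.37 and 3.98 to 30.7 and 28.8 CPM (3.02 ± 0.17), and Mrps5, of the mitochondrial ribosome, from 20.8 and 18.3 to 128 and 129.5 (2.72 ± 0.076). Ifi213, an interferon-inducible gene, fell the most, from 31.8 and 31.3 to 0.616 and 0.369 CPM (-5.98 ± 0.28, summed adjusted p = 0.0467). Serpinb2, a plasminogen activator inhibitor, went from 35.8 and 33.2 to 0.539 and 1.33 CPM (-5.18 ± 0.25), and Rapgef3, a cAMP-sensing exchange factor, from 37.6 and 36.2 to 5.08 and 5.84 (-2.75 ± 0.15, summed adjusted p = 0.0217). By this rule 10 genes each way were picked, and those not named here include the basophil and progenitor genes above. At 0 counts in the wild type were 2740 tested genes and in the libraries labelled Nat10-deficient 3582, of which 37 and 14 had at least 100 counts in the other group. Treml1, a platelet receptor gene, was one of them, at 0 in the wild type and at least 51.3-fold higher. Cd22, a B cell lectin, had 0 counts in both libraries labelled Nat10-deficient and was at least 70.3-fold lower. Spg20 (adjusted p = 0.138), Mrps5 (adjusted p = 0.122), Serpinb2 (adjusted p = 0.0994) and Cd22 (adjusted p = 0.212) did not pass with summed files.

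Markers of macrophages, endothelium and stroma, which share the marrow with HSCs, were counted in both genotypes. Vcam1 was the most abundant, with 98.8 and 101.3 CPM in the wild type and 86.2 and 85.8 in the libraries labelled Nat10-deficient (-0.22 ± 0.066). Of 22 tested genes 9 were higher and 7 lower (median 0.10, and -0.02 under RLE), and their CPM summed to 227 and 242 in the wild type and 294 and 291 in the libraries labelled Nat10-deficient. Cxcl12, the chemokine of niche stroma, had 16.8 and 18.3 against 84.5 and 81.3 CPM (2.24 ± 0.1), and Axl, a receptor of macrophages, 24.5 and 21.3 against 4.31 and 4.8 (-2.33 ± 0.17, summed adjusted p = 0.0212). C1qa and Marco, of macrophages, were at 0 counts in the wild-type files. Their part in the differences of other genes was not tested. Vcam1 (adjusted p = 0.594) and Cxcl12 (adjusted p = 0.0662) did not pass with summed files.

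For many genes the genotype difference at 3 h was not that at 0 h or the mean at 1 h and 5 h. It lay above the 0 h difference for 6410 genes (25.6%) and below it for 7596 (30.3%), and above the mean of the 1 h and 5 h differences for 5732 (22.9%) and below it for 6272 (25.0%). These contrasts share the 3 h libraries. In the first wild-type file, immunoglobulin genes took 3.63, 25.7, 49.6 and 59.7% of gene counts at 0, 1, 3 and 5 h. In the first file labelled Nat10-deficient they took 6.46, 9.04, 24.6 and 3.92%. The part of these shares in the contrasts was not tested. With the files summed, edgeR called 0 genes for 3 h against 0 h, with 1853 at an unadjusted p under 0.05. Plasma cell genes were below their 0 h difference in 16 of 19 cases and above it in 0, and B cell genes in 16 and 1 of 20. Ribosomal protein genes were above it in 43 of 50 cases and below it in 1 (median shift 0.48), and fatty acid oxidation genes in 17 and 0 of 23. Matn4, a matrix protein gene, had 20.1 and 18.2 CPM in the wild type and 15.6 and 18.9 in the others at 3 h, a difference of -0.15 ± 0.13 that did not pass (adjusted p = 0.329) where that at 0 h was -4.94. It passed as lower under RLE (-0.40), without immunoglobulin genes (-0.43), under the long-lived scaling (-0.79), with at least 50 counts in 2 libraries (-0.28) and with DESeq2 (-0.40). Ms4a1, which encodes CD20 of B cells, was higher by 2.45 at 0 h and differed by -2.23 ± 0.094 at 3 h (94.2 and 89.5 against 18.9 and 20.2 CPM). Ms4a1 (adjusted p = 0.0979) did not pass with summed files.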

How the data were processed

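The deposited files hold whole fragment counts per gene, made without strand by the authors with featureCounts 1.6.3 on an Ensembl 105 annotation per the file headers. STAR, DESeq2 and the GRCm39 build are listed in the submitters' processing notes. ERCC entries (92 of 55506) were removed, which left 55414 genes, and genes with no matched name were kept and tested. Names and classes of 52081 identifiers (94.0%) came from GENCODE M21, whose build is GRCm38. Gene coordinates come from the files. The other column the authors deposited, exonic length in bases, was used to group genes.

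The fit was edgeR 4.0.16 (quasi-likelihood F test, filterByExpr, TMM, R 4.3.3) over all 16 files with a mean for each of 8 groups. P-values were adjusted by Benjamini-Hochberg over 25081 genes with a threshold of 0.05. SE is the absolute log2 difference over the square root of F. Summed files were fitted with genotype, hours and their product over 8 libraries, with 4 residual degrees of freedom. The median biological coefficient of variation was 0.135 between files and 0.923 for summed libraries around their lines. DESeq2 1.42.0 served as an alternative. On simulated data the first fit called 192 of 200 changed genes and 21 of 24881 unchanged ones. The summed fit called 154 of 200 and 37 of 24881. Changes made for the summed fit were larger and held at every time, so the rates of the fits cannot be compared. Counts were drawn from each fit's own spread with few genes changed, unlike the data. The rates thus do not show how either fit did on the data.

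Named genes are a selection by rule: the 10 largest changes each way with mean log2 CPM of at least 4, 3 immunoglobulin genes each way, in each of 33 lists the 3 members with the highest CPM and the 2 largest changes, the 5 largest shifts from 0 h each way, and Nat10. HSC markers, Nhp2, Nop10, Nsun2, Thumpd1, Robo4, Vwf, Fos, Egr1, Cd79a, S100a9, Psat1, Mcpt4, C1qa, Marco, Cma1, Treml1, Cd22 and the AU-rich examples fall outside it and were chosen after their values were seen. Members and lists were chosen with earlier results of these data known. Genes at 0 counts in a group are bounded by holding that group at 3 counts on the TMM scale. Reads are not independent molecules here, and such bounds cover counting error only. Some members of the lists and a component of the culture medium are not reported here.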

Additional observations from a re-analysis of the deposited data

Results flagged for a closer look

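For many genes the genotype difference at 3 h differed from that at another time, by interaction tests in the same fit. It was above the 0 h difference for 6410 genes and below it for 7596, and above the mean of the 1 h and 5 h differences for 5732 and below it for 6272.

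Among single genes, the difference at 3 h minus that at 0 h was 4.79 ± 0.22 (log2 ± SE) for the matrix gene Matn4, 3.84 ± 0.19 for the spartin gene Spg20, 3.44 ± 0.16 for the calcium-sensing gene Kcnip3, 3.35 ± 0.2 for the ciliary transport gene Ift172 and 3.11 ± 0.16 for Lyrm9. It was -6.81 ± 0.43 for the interferon-inducible gene Ifi213, -6.80 ± 0.25 for the secretory factor gene Bhlha15, -6.40 ± 0.38 for Serpinb2, -4.68 ± 0.21 for the B cell gene Ms4a1 and -4.55 ± 0.3 for Il7r, the interleukin 7 receptor of lymphoid cells. With the files summed, edgeR called 0 genes for this shift, with 1853 at an unadjusted p under 0.05.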

How the results depend on the processing

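Without each 3 h file in turn, 6354 to 7172 genes were higher and 8293 to 8395 lower. Counts moved by over 1.5 times only in the cases that follow. With the files summed 724 genes were higher and 288 lower, 589 and 279 of them at least 2-fold, and 0 differed from 0 h in either direction (1853 at an unadjusted p under 0.05). With ERCC scaling 20265 were higher and 68 lower, 20261 and 67 at least 2-fold. With the long-lived scaling 3799 were higher, 2000 at least 2-fold. With at least 50 counts in 2 libraries, where fewer genes are tested, 4214 were lower, 1638 and 2133 at least 2-fold higher and lower, and 3908 and 3690 below the 0 h and the 1 h and 5 h differences. DESeq2 gave 2112 at least 2-fold higher, and scaling to all gene counts 3648 above the 1 h and 5 h differences. The causes of these moves were not tested. The remaining counts were within 1.5 times of those reported under the alternatives run. The summed fit could not test 3 h against 1 h and 5 h, since a straight line makes that contrast 0, and the fit of the 3 h libraries alone holds no other time.

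None of 104 named genes reversed under the fit of the 3 h libraries alone or the replicate block. Long-lived scaling turned Ctnnal1 (-0.25), Egr1 (-0.57), Fosb (-0.48), Jun (-0.26), Nfkbia (-0.19), Nsun2 (-0.62), Pdia3 (-0.07), Robo4 (-0.64), Rplp0 (-0.01), Thumpd1 (-0.47), Vwf (-0.30), Zfp36l2 (-0.03) and mt-Co1 (-0.44) lower. RLE and DESeq2 each gave Egr1 -0.18, Fosb -0.09, Nsun2 -0.23 and mt-Co1 -0.05. Without immunoglobulin genes Egr1 was at -0.22, Fosb -0.12, Nsun2 -0.26, Robo4 -0.28 and mt-Co1 -0.09. Summed files turned Ctnnal1 (-0.91), Fosb (-0.66), Fosl2 (-0.18), Jun (-0.30), Nfkbia (-0.32), Vwf (-0.84), mt-Co1 (-0.16) and Zcchc4 (0.47). All gene counts put Ftl1 at 0.25, no filter put it at 0.05, and at least 50 counts in 2 libraries put Nsun2 at -0.11. Of the 104 named genes run under the alternatives, 54 lost their call with summed files and Hlf gained one. Il5ra, Mmrn1 and Vcam1 were not among the 104. Ftl1 and Ctnnal1 lost theirs without the first file labelled Nat10-deficient (-0.01 and 0.34) and without the second wild-type file (-0.04 and 0.24), and without the second file labelled Nat10-deficient Thumpd1 (0.26, adjusted p = 0.0305) gained one, all in edgeR.

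Deviations of same-numbered 3 h files correlated at 0.0134 across 7717 genes. Files of a group differ little beyond counting and name the same alignment, so this cannot show whether the samples were paired. A fit with the replicate number as a block gave 7572 genes higher and 9129 lower, 3825 and 7323 at least 2-fold, 6371 and 7489 above and below the 0 h difference, and 5710 and 6233 above and below that at 1 h and 5 h.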
